A study of Mus musculus with 90 samples.

Results

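The tripartite motif (Trim) genes encode a large family of proteins built from a RING domain, B-box domains and a coiled coil, followed by a C-terminal part that differs between members. The genes described here were all those whose symbol in the probe annotation is Trim followed by a digit. There were 58 of them among the 18193 genes with a probe set of their own, and each was read from its brightest probe set, by the mean over the 90 arrays. The choice used no group label and no relation to Cxcl9. Another 5 Trim probe sets, annotated to several genes at once, were left out.

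Most Trim proteins are ubiquitin ligases. A group of members with a C-terminal SPRY domain acts in antiviral and inflammatory signalling and is switched on by interferons, while other members act in chromatin, muscle, neurons or the membrane of the endoplasmic reticulum. Cxcl9, a chemokine gene induced by interferon gamma, served as the reading of interferon gamma activity in each tumour, and the question was which Trim genes followed it and which did not.

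The values come from 90 Affymetrix arrays of subcutaneous melanoma allografts, all with the genotype Hgftg;Cdk4R24C/R24C (an Hgf transgene and homozygous R24C change of Cdk4) on the strain B6.cBrd. The labels do not say which promoter drives the transgene, whether the genotype is that of the tumour, the host or both, how old the mice were, or whether the allografts came from 1 line. PBS tumours (7) received 10 ml/kg of vehicle and ControlIgG tumours (22) received 10 mg/kg of a control antibody, normal IgG in the labels. The remaining groups received 10 mg/kg of an antibody against mouse PD-L1, made as mouse IgG1 with the D265A change. Responder tumours (27) had lost at least 5% of their volume and NonResponder tumours (23) progressed, with harvests matched in time to those of Responder tumours. In the Relapse group (6) tumours came back after shrinking out of measurable size, GrowthDelay tumours (2) first became visible once treatment had begun, and Stabilization tumours (3) held their volume between consecutive measurements. Groups defined by response were thus sorted by tumour volume, and harvest times varied. The number of doses varied too, from 2 to 12 in Responder and from 4 to 10 in Relapse tumours. The titles fall into ranges called title series here: 53 arrays in a larger one, 25 in a smaller one, 8 ControlIgG arrays alone and 4 PBS arrays alone. Nothing in the labels states that the arrays come from different mice, so p-values here reflect only the spread between these samples, which may be partly technical.

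Levels are deposited log2 values, and the array medians ran from 5.71 to 5.9. Precision is limited by the number of arrays. Markers of the labelled tissue were present: the mean log2 level of 7 melanocyte genes had a median of at least 10.03 in every group, with 7.4 in the lowest array. In 5 arrays the profile stood apart, by a correlation with the mean array under 0.95 or a high score of lymph node stroma genes: NonResponder replicate 14, Responder replicates 20 and 21, Stabilization replicate 1 and Relapse replicate 6. Results that rest on them are given with and without them.

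Before the levels, the start regions of members that held 1 short motif are shown, since 8 of the 9 belong to genes that rose with Cxcl9. The window searched ran from 250 bases before to 50 bases after each annotated start (RefSeq, GRCm38.p6), and 47 of the 58 members were in the table. The motif was the core of the interferon-stimulated response element, spelled GAAA, any 2 bases and GAAA again. It was searched on both strands, and from the other strand it reads TTTC, any 2 bases and TTTC. Of the 18 members whose level rose with Cxcl9 in the model described further on, 11 were in the table, and the motif was found in 8 of these (72.7%), in 1 of 28 without such a slope (3.57%) and in 0 of 8 whose level fell with Cxcl9. Of all 32851 windows, 3.44% held it, and of the 2136 measured genes in the table that rose with Cxcl9, 6.13% did.

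The matches, written from the gene's strand with the motif in capitals and up to 15 bases on either side, were these.
Trim21: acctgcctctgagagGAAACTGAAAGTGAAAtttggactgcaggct
Trim26: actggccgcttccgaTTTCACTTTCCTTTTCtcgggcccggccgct
Trim34a: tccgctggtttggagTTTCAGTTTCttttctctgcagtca
Trim30a: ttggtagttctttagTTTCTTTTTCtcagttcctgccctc
Trim30d: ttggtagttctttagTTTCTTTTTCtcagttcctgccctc
Trim5: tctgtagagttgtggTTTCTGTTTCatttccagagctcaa
Trim12a: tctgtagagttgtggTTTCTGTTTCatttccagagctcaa
Trim12c: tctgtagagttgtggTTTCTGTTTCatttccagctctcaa
Trim2: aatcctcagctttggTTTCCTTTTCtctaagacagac
In Trim21 (chr7:102565439-102565484, minus strand) and Trim26 (chr17:36836971-36837016, plus strand) 2 overlapping matches stood side by side. In Trim12c (chr7:104353354-104353393, minus strand) the match began 29 bases before the start, and in Trim34a (chr7:104244452-104244491, plus strand) it began at base 11 of the transcript. For Trim30a the window shown is that of the start at which the match lies 36 bases upstream (chr7:104465205-104465244, minus strand), and that of Trim30d lies at chr7:104507866-104507905 on the same strand. The matches of Trim5 (chr7:104288131-104288170), Trim12a (chr7:104315461-104315500) and Trim2 (chr3:84212789-84212825) are also on the minus strand. The windows are not independent of each other. Those of Trim5 and Trim12a had 0 differing bases over 40, that of Trim12c differed from both at 2 bases, and Trim30a and Trim30d had 0 differing bases. Trim2 held a match and had no slope on Cxcl9, whereas Trim25, Trim47 and Trim68 rose with Cxcl9 without a match in this window. A second motif, TTCNNNGAA (the interferon gamma activated site, the same on both strands), was found in 0 of the 11 members that rose with Cxcl9 and in 8.3% of all windows. A match is a description of the sequence, and a window without one says only that these letters are not in it.

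The longer window of Trim12c (chr7:104353300-104353599, minus strand) shows where the motif lies relative to the start, before which 250 of the 300 printed bases lie.
Trim12c: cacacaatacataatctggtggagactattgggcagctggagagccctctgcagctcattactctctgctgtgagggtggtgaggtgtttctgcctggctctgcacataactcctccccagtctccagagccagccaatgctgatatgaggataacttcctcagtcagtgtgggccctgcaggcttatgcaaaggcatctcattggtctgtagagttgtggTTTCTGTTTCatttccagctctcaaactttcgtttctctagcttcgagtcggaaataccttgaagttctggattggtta

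Cxcl9 itself spanned 6.89 to 13.2 over the arrays. Its lowest, median and highest levels were 6.89, 9.04 and 10.6 in PBS, 7.89, 10.3 and 11.6 in ControlIgG, 7.0, 10.1 and 11.7 in NonResponder and 9.3, 11.6 and 13.2 in Responder tumours. Relapse tumours ran from 10.1 to 11.9, the GrowthDelay arrays were at 10.36 and 8.63, and the Stabilization arrays at 11.47, 11.91 and 11.68. Responder and NonResponder ranges overlapped, yet 24 of 27 Responder arrays lay above the NonResponder median. Across the 90 arrays Cxcl9 correlated with Ifng (Pearson r = 0.839), with the mean of 12 measured interferon gamma response genes (0.936) and with Ptprc, which encodes the pan-leukocyte surface protein CD45 (0.806). These and the other correlations with marker genes are descriptions, with no test. Its correlation with the mean of 14 measured type I interferon genes was 0.446. That value was 0.69 within the larger and -0.067 within the smaller title series, and 0.683 without the 5 arrays that stand apart.

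The correlation of each Trim gene with Cxcl9 was computed for all 58 members. It exceeded 0.5 in 12 of them (20.7%), against 7.2% of all genes, and was below 0 in 31. Negative values were no more common than over all genes: the median r was -0.07 over the members and -0.156 over all genes. Under -0.3 lay 27.6% of the members and 30.6% of all genes. The 10 highest were Trim30a (r = 0.821), Trim21 (0.802), Trim12c (0.79), Trim30d (0.784), Trim12a (0.777), Trim14 (0.713), Trim5 (0.659), Trim25 (0.619), Trim26 (0.575) and Trim11 (0.56). All but Trim11 belong to the list of interferon-inducible members, most of which carry a SPRY domain. That list was chosen with earlier results of these data known. For each of these 10 the two-sided permutation p was 1e-05, the smallest that 100000 permutations can give, before any adjustment for 58 relations. The 5 lowest were Trim10 (r = -0.632), Trim13 (-0.583), Trim31 (-0.481), Trim59 (-0.441) and Trim72 (-0.415), with permutation p between 1e-05 and 8e-05.

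**Figure D1:**
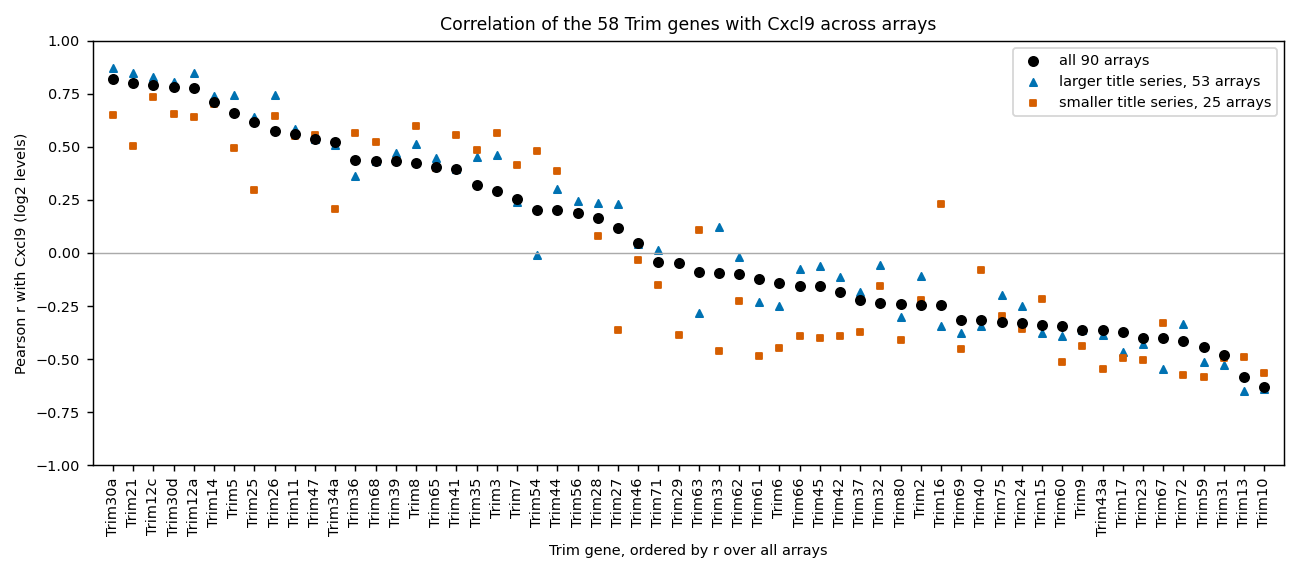
Pearson correlation with Cxcl9 (vertical axis, no unit) of each of the 58 Trim genes (horizontal axis, ordered by the value over all arrays), over all 90 arrays (circles) and within the larger (triangles, 53 arrays) and smaller title series (squares, 25 arrays). The circles run from 0.821 for Trim30a to -0.632 for Trim10, and the squares lie farthest from the triangles for Trim33, Trim16 and Trim27.

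By rank, Spearman's rho was 0.865 for Trim12c, 0.824 for Trim30a and 0.795 for Trim21 (permutation p = 1e-05 each, n = 90). For Trim10 rho was -0.584 and for Trim13 -0.644, with the same permutation p. Without the 2 arrays farthest from the median of Cxcl9, r was 0.792 for Trim30a, 0.773 for Trim21, -0.589 for Trim10 and -0.578 for Trim13. Within the larger title series r was 0.871 for Trim30a, 0.848 for Trim21 and 0.828 for Trim12c, and within the smaller one 0.648, 0.504 and 0.733. Within single groups the top members kept their sign. Trim30a reached 0.629 in Responder, 0.663 in NonResponder and 0.875 in ControlIgG tumours, and Trim21 reached 0.571, 0.846 and 0.903.

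The points for Trim21, Trim30a and Trim12c lay along a rising band in which the groups overlap, as the plot of 6 members against Cxcl9 shows. Those for Trim10 and Trim13 sloped down, and Trim28 had no slope (r = 0.165, permutation p = 0.119).

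**Figure D2:**
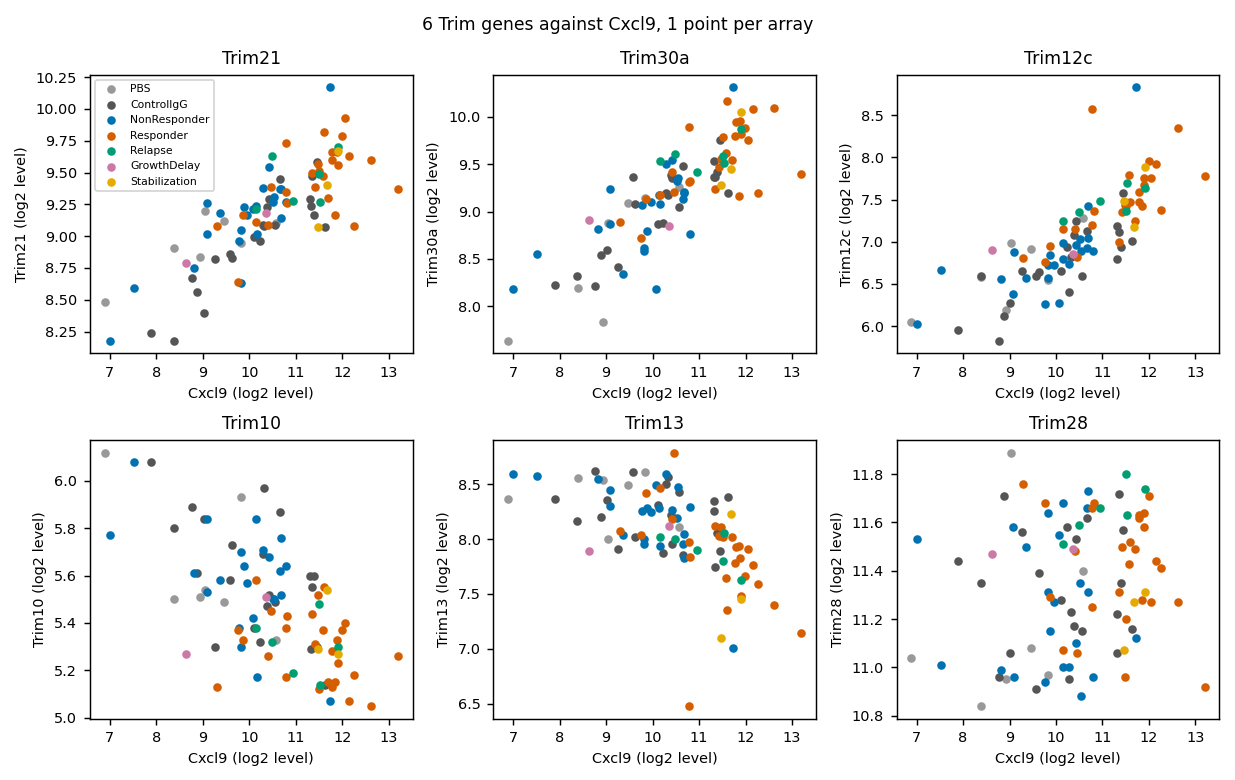
Log2 level of 6 Trim genes (vertical axes) against the log2 level of Cxcl9 (horizontal axes), 1 point per array, coloured by group. Trim21, Trim30a and Trim12c (r = 0.802, 0.821 and 0.79) rise with Cxcl9, Trim10 and Trim13 (-0.632 and -0.583) fall, and Trim28 (0.165) does neither.

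Since Responder tumours are high in Cxcl9, the relation was also measured within groups, as the slope of each gene on Cxcl9 in a limma model that holds group and title series fixed. The slope is the log2 change per log2 unit of Cxcl9. In this model 27 of the 58 members passed (Benjamini-Hochberg adjusted p under 0.05 over all genes), 18 upward and 9 downward. Over all genes 31.3% passed, 14.7% upward and 16.7% downward. After centring each array on its median the members split into 14 upward and 19 downward (52.5% of all genes passed), and after quantile normalization into 17 and 10 (35.7%). The median slope was -0.00385 over the members and -0.0154 over all genes. In bulk tumour RNA, fewer cells of a type and less RNA per cell cannot be told apart in any of these relations.

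The interferon-inducible list carried most of the positive slopes. Of its 12 measured members 10 rose with Cxcl9 and 0 fell, against 14.7% and 16.7% of all genes, with a median slope of 0.26. As the list was chosen with earlier results of these data known, this count is a description and not independent support. Trim21, an antibody receptor in the cytosol, had a slope of 0.27 (SE 0.02, adjusted p = 1.83e-14). Trim30a, which restrains NF-kappaB signalling, had a slope of 0.33 (SE 0.03, adjusted p = 9.12e-13), and its neighbour Trim30d one of 0.36 (SE 0.04). Trim12c and Trim12a, mouse relatives of the retrovirus restriction gene Trim5, had slopes of 0.33 and 0.36, and Trim5 itself one of 0.25. Trim14, a mitochondrial adaptor without a RING domain, had a slope of 0.28 (SE 0.04, adjusted p = 1.99e-07). Trim26 (0.16), Trim34a (0.17) and Trim25 (0.09), the ligase of the RNA sensor RIG-I, were the shallower ones.

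Not all of the list followed. Trim56, a ligase of antiviral signalling, had a slope of 0.06 (SE 0.06, adjusted p = 0.455), and Trim6 did not pass either. Outside the list, Trim47 (0.25), Trim8 (0.14), Trim11 (0.14), Trim68 (0.11), Trim36 (0.09), Trim65 (0.09), Trim35 (0.08) and Trim3 (0.07) rose with Cxcl9. For Trim8, a regulator of cytokine signalling, the probe sets disagreed: r with Cxcl9 was 0.425 for the one used and 0.193 and -0.09 for the others. They also did for Trim36 (0.439 for the one used, -0.114 for the other) and Trim35 (0.318 for the one used, -0.039 and 0.418 for the others).

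7 measured members lie in 1 run of Trim genes on chromosome 7 (Trim6, Trim34a, Trim5, Trim12a, Trim12c, Trim30a and Trim30d). Their pairwise correlations across the 90 arrays ran from -0.129 to 0.952, with a median of 0.664, against a median of -0.008 over all 1653 pairs of members. These genes are close relatives, so part of a signal may be shared between their probe sets, which was not tested. Trim21 lies elsewhere on the same chromosome, and Trim14, Trim25 and Trim26 on others.

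Downward slopes came from 9 members of several subfamilies, a share (15.5%) near that of all genes (16.7%). Of the 9, 5 had a mean level below the median gene (7.01), a share near that of the whole family (31 of 58). Both members anchored in the endoplasmic reticulum fell with Cxcl9: Trim13 (-0.16, SE 0.04, adjusted p = 0.00115) and Trim59 (-0.17, SE 0.06, adjusted p = 0.021). Trim10, known from red cell maturation, had a slope of -0.10 (SE 0.02, adjusted p = 9.52e-05). Across arrays Trim10 also followed the mean of 3 measured erythroid genes (r = 0.643, n = 90, with 0.706 within the larger and 0.377 within the smaller title series), which itself ran against Cxcl9 (r = -0.635). The part of those genes in the slope of Trim10 was not tested. Trim23 (-0.17), Trim24 (-0.09), Trim43a (-0.08), Trim31 (-0.07), Trim17 (-0.06) and Trim72 (-0.06) also fell.

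Chromatin members of the TIF1 class moved little. Trim28 (KAP1), a silencer of retroelements, had a slope of 0.02 (SE 0.03, adjusted p = 0.677) and Trim33 one of -0.01 (SE 0.02, adjusted p = 0.766). Trim24 was the 1 of the 4 that passed, and its fall took the opposite sign when Ptprc was added (0.12, adjusted p = 0.0257). Of the NHL-domain members, Trim2 had a slope of -0.06 (SE 0.05, adjusted p = 0.361). Trim29, a keratinocyte gene, was flat (-0.00, SE 0.02). Trim9, a neuronal member, had a slope of -0.04 (adjusted p = 0.057).

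Since Cxcl9 and leukocyte content move together in these tumours, the slope was also fitted with Ptprc as a further term, where 14 members rose and 2 fell with Cxcl9 (18.4% of all genes passed). Among the interferon-inducible members, Trim21, Trim30a, Trim30d, Trim12c, Trim14 and Trim25 still rose, whereas Trim12a, Trim26, Trim34a and Trim5 no longer passed, with the slope of Trim5 at -0.02. Outside that list the slope of Trim47 became -0.18 (adjusted p = 0.0334). Trim2, which holds a motif match, and Trim63 were among the 14 without having passed before (0.23, adjusted p = 0.00108, and 0.55, adjusted p = 4.92e-05). With the type I interferon list in place of Cxcl9, 15 rose and 3 fell (18.5% of all genes passed). Trim56 was among the 15 there, as were Trim27, Trim28 and Trim33, and Trim12a and Trim5 were not. With Ifng in place of Cxcl9, 14 rose and 2 fell (12% of all genes passed), and all 10 interferon-inducible members that rose with Cxcl9 also rose with Ifng. Trim2 had opposite signs here, 0.50 with the type I list (adjusted p = 0.00592) and -0.14 with Ifng (adjusted p = 0.0371).

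A joint limma model of the larger and smaller title series gave each its own slope, with group fixed within series and a shared spread. For the larger series Trim21 had a slope of 0.30 (SE 0.03, adjusted p = 9.37e-14), Trim30a 0.33 and Trim12c 0.36. Within the smaller series the slopes of the same genes were 0.03 (SE 0.09), 0.08 (SE 0.13) and 0.06 (SE 0.14), and none of the 3 passed. The test of the difference between the series did not pass for any of the 3 (adjusted p from 0.134 for Trim21 to 0.459 for Trim30a). In all, 21 members passed within the larger series, 16 upward and 5 downward (26.3% of all genes, 12.8% upward and 13.6% downward). Within the smaller one 4 did, 2 in each direction (3.75% of all genes, 2.72% upward and 1.03% downward). With each series fitted alone, 25 members passed in the larger (32.7% of all genes) and 0 in the smaller (0.555%). The slope differed between the series in 3 members, 2 of them higher in the smaller one (2.83% of all genes, 2.2% higher and 0.632% lower): Trim63, Trim54 and Trim27.

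Trim63 and Trim54 are muscle RING finger genes, which encode ligases of the contractile apparatus. Trim63 differed by 1.70 (smaller minus larger, SE 0.33, adjusted p = 0.000383) and Trim54 by 1.11 (SE 0.25, adjusted p = 0.00238). Trim27, a nuclear ligase, differed by -0.28 (SE 0.06, adjusted p = 0.00221). Responder replicate 21 stood at 11.51 for Trim63 and 8.8 for Trim54, above all other arrays, and at 13.61 for the mean of 8 skeletal muscle genes. Responder replicate 20 and Stabilization replicate 1 were the lowest for Trim63, at 4.58 and 4.65. Without Responder replicate 21, 0 members differed (0% of all genes): Trim63 by 1.34 (adjusted p = 0.117), Trim54 by 0.18 (0.771) and Trim27 by -0.18 (0.245). The count rose to 8 members without Responder replicate 20 (6.37% of all genes passed) and to 6 without Stabilization replicate 1 (3.64%). Without all 5 arrays that stand apart Trim63 differed by -0.30 and Trim54 by -0.06, and 0 members passed.

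Across the 90 arrays Trim54 followed the muscle list (r = 0.778), and without Responder replicate 21 this was 0.802. Trim63 did so little (r = 0.189, and 0.0859 without that array). With the melanocyte list Trim63 had r = 0.549, and 0.937 without that array, but 0.658 without the 5 arrays that stand apart. Among those 5, Responder replicate 20 and Stabilization replicate 1 were low in both (melanocyte mean 7.56 and 7.72, Trim63 4.58 and 4.65). The mean of the muscle list ran from 4.71 to 13.61 in Responder, 4.99 to 10.82 in NonResponder and 5.09 to 11.32 in ControlIgG tumours. In the plot of both genes against Cxcl9 the highest point is the same array, Responder replicate 21. Trim72, another muscle member, did not follow the muscle list (r = -0.154).

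**Figure D3:**
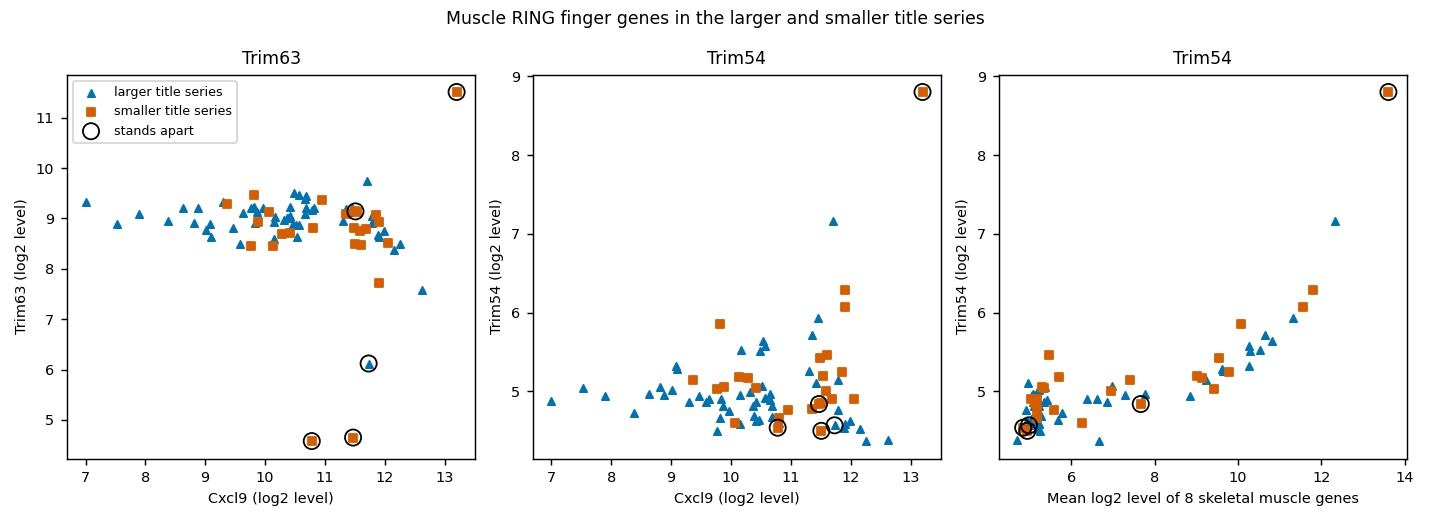
Log2 levels of Trim63 and Trim54 (vertical axes) against Cxcl9 (left and middle) and of Trim54 against the mean log2 level of 8 skeletal muscle genes (right), in the larger (triangles) and smaller (squares) title series. Circles mark arrays that stand apart. Responder replicate 21 is the highest point of each panel (11.51 and 8.8).

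Trim16 and Trim27 were the members whose correlation with Cxcl9 had opposite signs in the series with both sizes over 0.2. Trim27 had r = 0.229 in the larger and -0.361 in the smaller series, and Trim16 had -0.346 and 0.23. In Trim16, whose levels ran from 5.69 to 7.04 in Responder tumours, the highest array was again Responder replicate 21.

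The comparison of Responder with NonResponder tumours addresses what sets regressing tumours apart from progressing ones under the same antibody at the same dose level, though the number of doses varied. Trim30d, Trim12a, Trim14, Trim12c and Trim30a were higher in Responder tumours, by 1.46-fold to 1.63-fold, and Trim59, Trim23, Trim13 and Trim10 were lower. Of the 58 members, 31 passed, 16 higher and 15 lower. Over all genes 47% passed, 17.2% higher and 29.8% lower, so the share of members that were lower (25.9%) was near that of all genes, and the share that were higher (27.6%) was above it. The median difference was -0.0104 over the members and -0.058 over all genes. Median centring split the members 13 higher and 20 lower (61.5% of all genes passed), and quantile normalization 15 and 7 (36.4%). Of the 15 falls, 12 were in members with a mean level below the median gene (7.01), where arrays resolve little, against 3 of the 16 rises.

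Trim30d had its lowest, median and highest levels at 8.69, 9.5 and 10.1 in Responder and at 7.72, 8.68 and 10.3 in NonResponder tumours. The ranges overlapped, but all 27 Responder arrays lay above the NonResponder median. It rose 1.63-fold (log2 0.71, SE 0.15, limma adjusted p = 0.000327; 27 against 23 arrays). Trim12a ran over 5.62, 6.69 and 8.62 against 4.84, 5.85 and 8.08 and rose 1.62-fold (log2 0.70, SE 0.14, adjusted p = 0.000266). For Trim12a, 25 of 27 Responder arrays were above the NonResponder median.

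Trim14 stood at 7.56, 8.24 and 8.94 in Responder and at 7.01, 7.59 and 9.36 in NonResponder tumours. It rose 1.58-fold (log2 0.66, SE 0.13, adjusted p = 0.000163). Trim12c stood at 6.76, 7.42 and 8.57 against 6.03, 6.8 and 8.83 and rose 1.56-fold (log2 0.64, SE 0.13). In both genes 26 of 27 Responder arrays were above the NonResponder median, and the highest NonResponder value belonged to replicate 14, an array that stands apart. Trim30a stood at 8.72, 9.54 and 10.2 against 8.18, 9.08 and 10.3 and rose 1.46-fold (log2 0.54, SE 0.12).

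Trim47 (log2 0.49), Trim41 (0.45) and Trim8 (0.41) completed the larger rises, and Trim5 rose as much as Trim8 (0.41). Trim47 ran from 5.27 to 8.8 in Responder and from 5.35 to 7.84 in NonResponder tumours, so its ranges overlapped over most of their length. Trim41 rose 1.36-fold without a slope on Cxcl9. Trim21, the gene with the smallest adjusted p for its slope, rose 1.22-fold (log2 0.28, SE 0.09, adjusted p = 0.0126), with 20 of 27 Responder arrays above the NonResponder median. Trim25 (log2 0.09, SE 0.05, adjusted p = 0.106), Trim34a (log2 0.27, SE 0.12, adjusted p = 0.0541) and Trim56 (log2 0.33, SE 0.16, adjusted p = 0.0798) did not pass, and Trim6, a dim member of the chromosome 7 run, fell by 0.15 (adjusted p = 0.0129).

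Trim10 stood at 5.05, 5.31 and 5.58 in Responder and at 5.07, 5.61 and 6.08 in NonResponder tumours. All 27 Responder arrays lay below the NonResponder median. It fell by 0.29 log2 units (SE 0.06, limma adjusted p = 0.000266). The erythroid score beside it had medians of 6.14 and 6.51, and 1 of 3 erythroid genes fell, a share near the 29.8% of all genes that were lower. Trim13 stood at 6.48, 7.93 and 8.79 against 7.01, 8.27 and 8.59 and fell by 0.35 (SE 0.10, adjusted p = 0.00465).

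Trim59 had its lowest and median levels at 6.99 and 10.1 in Responder and at 9.72 and 10.5 in NonResponder tumours, with overlapping ranges, and fell by 0.39 (SE 0.15, adjusted p = 0.0263). Its lowest value was Responder replicate 21. Without the 5 arrays that stand apart it fell by 0.27 (adjusted p = 0.018). Trim23, which also carries a GTPase domain of the ARF type, fell by 0.37 (SE 0.15, adjusted p = 0.0376) and missed the threshold without those arrays (adjusted p = 0.0512). Trim80, Trim40, Trim43a and Trim61 fell by 0.17 to 0.19, each from a NonResponder mean under the median gene.

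Slope and group difference were then set side by side. Of the 16 that were higher in Responder tumours, 13 also rose with Cxcl9, and Trim39, Trim41 and Trim44 had no slope that passed. Of the 15 that were lower, 7 also fell with Cxcl9, and 0 members passed in opposite directions. Trim25, Trim34a, Trim36, Trim65 and Trim68 rose with Cxcl9 without a group difference that passed. In 20 members neither passed, among them Trim2, Trim28, Trim33, Trim56 and Trim63. Of all genes, 47% passed for the group difference and 31.3% for the slope. How many of them passed both was not counted, so these counts are not set against all genes. The slope holds group fixed, but both values come from the same arrays.

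**Figure D4:**
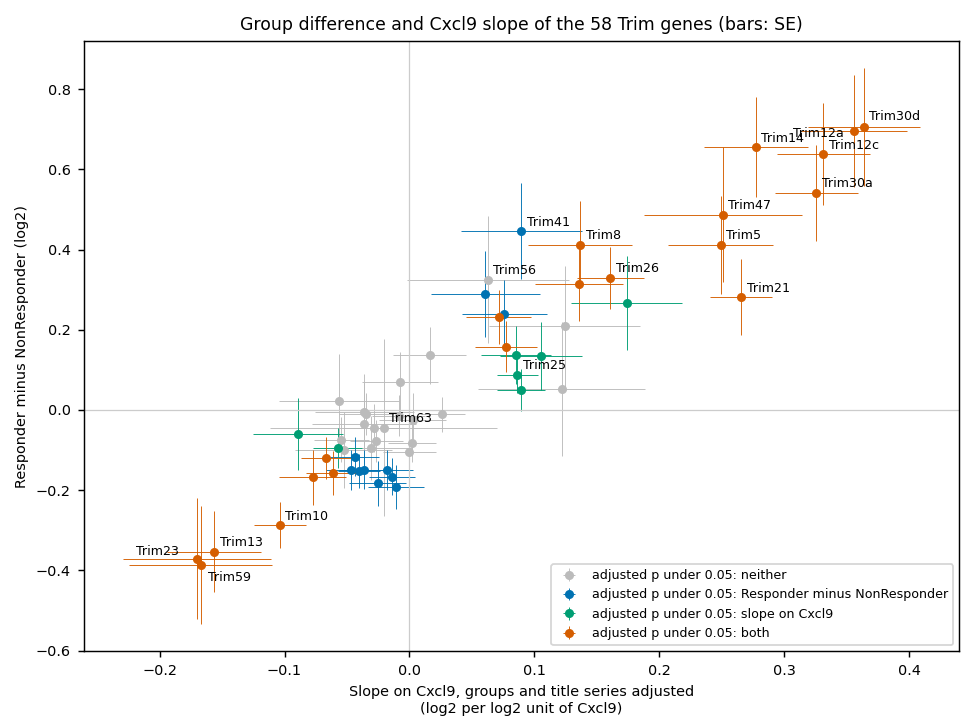
Responder minus NonResponder difference (vertical axis, log2) against the slope on Cxcl9 with groups and title series held fixed (horizontal axis, log2 per log2 unit) for the 58 Trim genes, with SE bars and colours for the tests passed. Trim30d, Trim12a, Trim12c, Trim30a and Trim14 lie at the upper right (differences of 0.54 to 0.71), Trim23, Trim59 and Trim13 at the lower left, and Trim41 (0.45) above the band.

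Leukocyte genes moved with the same comparison. Ptprc had a median of 11.32 in Responder (8.47 to 13.09) and 9.71 in NonResponder tumours (7.26 to 12.93). 3 of 3 leukocyte, 6 of 6 macrophage and 4 of 5 T cell genes were higher in Responder tumours, and 0 of these 14 were lower. Of all genes 17.2% were higher and 29.8% lower. The score of T cell genes had medians of 8.02 and 6.85. The part of leukocyte content in the rises of Trim genes was not tested beyond the slope with Ptprc given above.

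Genes around Trim proteins in RNA sensing moved in part. Of 8 listed partners, Tab2 (log2 0.30), Mavs (0.23), Traf6 (0.17) and Tbk1 (0.14) were higher in Responder tumours and 0 were lower. Over all genes 17.2% were higher and 29.8% lower. Ddx58, which encodes RIG-I, had a difference of 0.16 (limma adjusted p = 0.147). With Cxcl9, Tab2, Tbk1 and Irf3 rose and Tab3 fell, beside 14.7% of all genes upward and 16.7% downward. All 12 measured interferon gamma response genes were higher in Responder tumours, against 4 higher and 1 lower of the 14 type I genes.

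Both title series contain Responder and NonResponder tumours, and the rule for naming the larger differences asked for the same sign in each. Trim12a differed by 0.47 within the larger and by 1.07 within the smaller series, Trim14 by 0.54 and 0.85, Trim30d by 0.64 and 0.81 and Trim10 by -0.28 and -0.30. Tested within series, 4 members passed in the larger, 2 in each direction (2.63% of all genes, 0.616% higher and 2.01% lower). In the smaller one 25 did, 16 higher and 9 lower (36.7% of all genes, 14.3% higher and 22.4% lower). With the smaller series fitted alone 12 passed, 9 higher and 3 lower (19.1% of all genes). The larger alone gave 4, 1 higher and 3 lower (3.02%). No member and no gene passed the limma test that the difference itself changed with the series (0% of all genes; the smallest adjusted p of a member was 0.32, and 7 members and 2418 genes had an unadjusted p under 0.05).

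Against ControlIgG tumours, Responder tumours were higher in Trim14, Trim12c, Trim12a and Trim56 and lower in Trim10. This comparison shares the Responder arrays with the one above and has ControlIgG arrays of the larger and IgG-only title series. Of the members 26 passed, 17 higher and 9 lower, against 37.3% of all genes (14.5% higher, 22.8% lower). Median centring gave 15 and 16 (45.3% of all genes passed), quantile normalization 13 and 2 (22.7%). Trim14 rose 1.69-fold (log2 0.76, SE 0.15, adjusted p = 0.000494), from ControlIgG levels of 6.67, 7.44 and 8.82. Trim12c rose 1.6-fold and Trim12a 1.53-fold. Trim56, which missed the threshold against NonResponder tumours, rose 1.45-fold here (log2 0.53, SE 0.19, adjusted p = 0.0252). Trim10 (-0.39), Trim13 (-0.30) and Trim15 (-0.25) were the larger falls. Trim15 is a dim member, at 3.76 to 4.39 in Responder and 3.85 to 4.73 in ControlIgG tumours.

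NonResponder and ControlIgG tumours did not differ in any gene by limma (0% of all genes and 0 members at adjusted p under 0.05). At an unadjusted p under 0.05 there were 838 genes and 1 member, Trim15 (log2 -0.18, SE 0.07). Between ControlIgG and PBS tumours 0 members passed (0.0055% of all genes), and 0 members had an unadjusted p under 0.05 against 240 genes. The PBS levels of Trim30d ran from 7.09 to 9.39 and those of ControlIgG tumours from 7.68 to 9.8. For GrowthDelay against NonResponder tumours, with 2 arrays, 0 genes passed (0% of all genes), and 567 genes and 1 member had an unadjusted p under 0.05. The GrowthDelay arrays stood at 8.84 and 8.92 for Trim30d and at 5.8 and 5.37 for Trim12a, inside the NonResponder range. Across all 7 groups at once 30 members passed the F test, against 45.9% of all genes, led by Trim14, Trim10 and Trim12c.

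**Figure D5:**
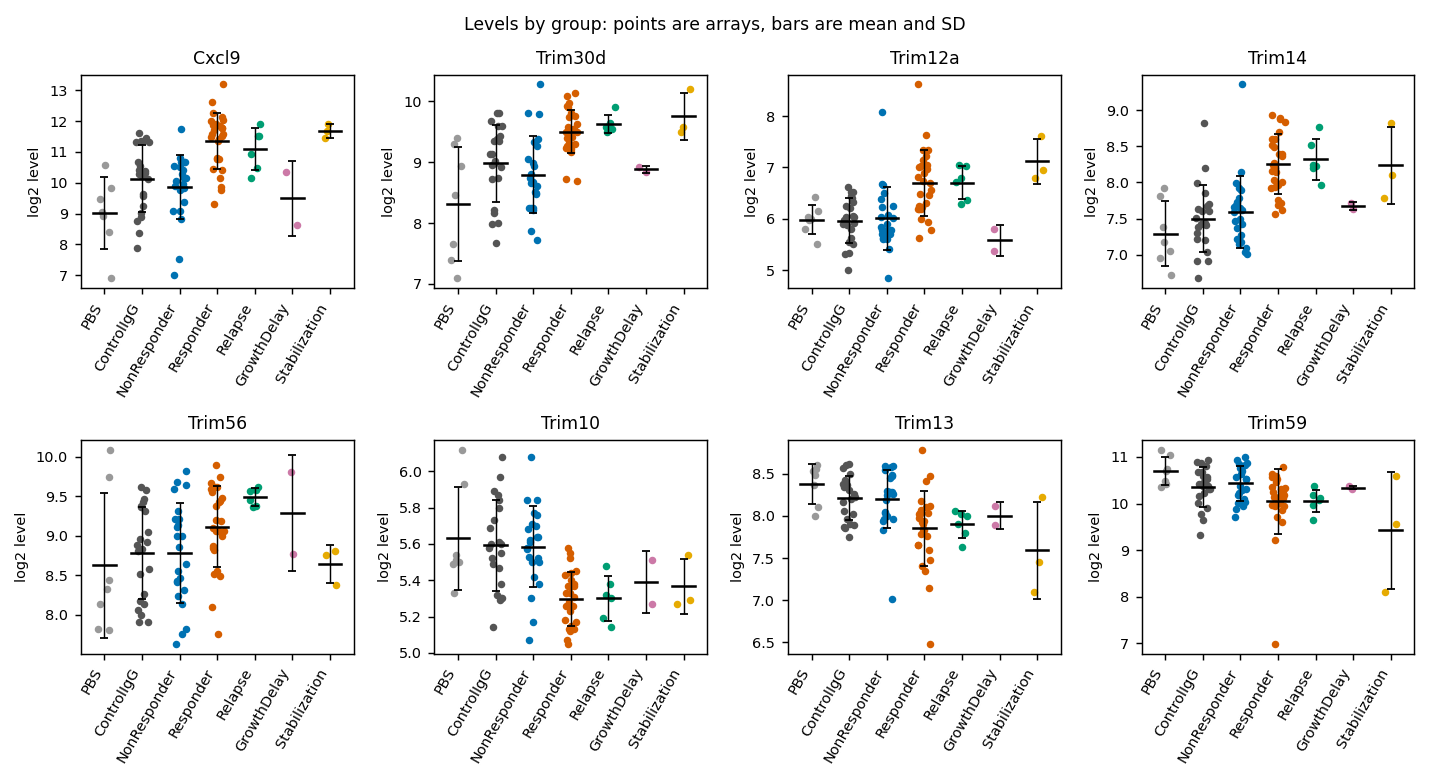
Log2 levels (vertical axes) of Cxcl9 and 7 Trim genes in the 7 groups (horizontal axes), 1 point per array, with the mean and SD as bars. Trim30d, Trim12a and Trim14 are high in Responder and Relapse tumours (Trim30d means 9.5 and 9.62, against 8.8 in NonResponder tumours), Trim10 is low there (5.3 in both), and the 6 Relapse arrays lie close together for Trim56 (9.36 to 9.61). Stabilization tumours are also high in Trim30d and Trim12a (Trim12a at 6.95, 7.61 and 6.79).

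Relapse tumours were higher than NonResponder tumours in Trim30d, Trim56, Trim14 and Trim28 and lower in several dim members. The NonResponder arrays are the reference here as in the comparisons with Responder, Stabilization and GrowthDelay tumours. Of the members 20 passed, 14 higher and 6 lower, beside 20.3% of all genes (8.43% higher, 11.9% lower). Trim30d stood at 9.9, 9.55, 9.58, 9.65, 9.49 and 9.58 in the 6 arrays and rose 1.78-fold (log2 0.83, SE 0.24, adjusted p = 0.0181). All 6 lay above the NonResponder median of 8.68 and within the NonResponder range. Trim56 stood at 9.36, 9.45, 9.37, 9.58, 9.57 and 9.61 and rose 1.7-fold (log2 0.76, SE 0.26, adjusted p = 0.0333), from NonResponder levels of 7.63, 8.85 and 9.82. Trim14 stood at 8.77, 8.24, 7.96, 8.23, 8.2 and 8.52 and rose 1.67-fold (log2 0.74, SE 0.20, adjusted p = 0.0151).

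Trim28, which did not pass in any other pair of groups tested, rose 1.32-fold in Relapse tumours (log2 0.40, SE 0.11, adjusted p = 0.019). Its 6 arrays stood at 11.74, 11.59, 11.51, 11.63, 11.66 and 11.8, against a NonResponder range of 10.9 to 11.7. The falls were in dim members, Trim80 (-0.36), Trim60 (-0.35) and Trim10 (-0.29) among them. Trim60 stood at 5.19, 5.21, 5.5, 4.71, 5.32 and 5.13. These counts rest on few arrays: 3 members passed without Relapse replicate 6, beside 3.06% of all genes, 4 without replicate 4 (4.31%), 6 without replicate 5 (6.26%) and 7 without replicate 1 (7.47%). Without replicate 3 there were 18 (15.4%) and without replicate 2 there were 19 (22.3%). Without all 5 arrays that stand apart, Relapse replicate 6 among them, 16 members passed (19.7% of all genes). Median centring, which moved the median difference of all genes from -0.0612 to -0.177, gave 10 higher and 15 lower (40.4% of all genes passed), and quantile normalization gave 3 and 3 (7.29%).

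Stabilization tumours, all in the smaller title series, differed from NonResponder tumours in 15 members, 7 higher and 8 lower, against 22.4% of all genes (10.5% higher, 11.9% lower). Trim63 stood at 4.65, 7.71 and 8.8 in the 3 arrays, against 6.12, 8.91 and 9.46 in NonResponder tumours, and fell by 1.74 (SE 0.50, adjusted p = 0.0109). Trim59 stood at 8.1, 9.57 and 10.6 and fell by 1.13 (SE 0.33, adjusted p = 0.0124). Trim24 stood at 7.6, 8.55 and 9.62 and fell by 0.56 (SE 0.20, adjusted p = 0.0366). In each of the 3 genes replicate 1 was lowest and replicate 3 within the NonResponder range.

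The rises in Stabilization tumours were led by Trim30d (9.57, 10.2 and 9.49; log2 0.97, SE 0.33, adjusted p = 0.0271), Trim41 (8.94, 8.66 and 7.83; log2 0.86) and Trim8 (8.35, 8.15 and 7.45; log2 0.63). Without Stabilization replicate 1, which stands apart, 0 members passed (0.011% of all genes). Without replicate 2 there was 1 (4.79% of all genes), and without replicate 3 there were 20 (36.6%). Melanocyte genes had a mean of 7.72, 10.03 and 11.01 in the 3 arrays. Their part in these differences was not tested. Median centring gave 3 higher and 11 lower (28.8% of all genes passed), and quantile normalization 6 and 5 (22.1%).

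Choosing another probe set mattered for some members. Of 53 further probe sets of the members, 12 had a correlation with Cxcl9 of the opposite sign to the one used, in 1 case with both sizes over 0.2. With the lowest correlation among each gene's probe sets, 7 members exceeded 0.5 in place of 12. Among the 10 members with the highest r, the second probe set had r = 0.792 for Trim30a, 0.608 for Trim30d, 0.579 for Trim21, 0.55 for Trim12c and 0.489 for Trim14. It was lower for Trim26 (0.329) and lowest for Trim12a (0.139), whose second probe set has a mean level of 4.08 against 6.28 for the one used. Trim25 had 0.471 and 0.419 on its other probe sets, and Trim5 and Trim11 have 1 probe set each.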

How the data were processed

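Deposited log2 values of 45101 probe sets on 90 arrays were used; per the submitters' processing notes the authors normalized them with RMA (robust multi-array average), and limma is also named there. Versions, and which arrays were normalized together, are not given in the sources used here. Of the probe sets, 34945 carried 1 gene symbol, 932 several and 9160 were not listed, and 64 controls were left out. Each of 18193 genes was represented by its brightest probe set, which meant a choice for 31 of the 58 Trim genes.

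One linear model per gene was fitted to all arrays with limma 3.58.1 (R 4.3.3; lmFit, eBayes) with group and title series as terms, and, for slopes, Cxcl9 as well. Tests are two-sided, with Benjamini-Hochberg adjustment over all genes and a threshold of 0.05. ControlIgG, PBS and GrowthDelay have no arrays in the smaller series and Stabilization none in the larger, so parts of their differences rest on the shared title series term. Correlations used Python 3.11.15 and scipy 1.17.1 with 100000 permutations. The fits were tested on simulated data. Array weights were estimated gene by gene because the default estimate did not converge.

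The members, subfamilies and lists were chosen with earlier results of these data known. Named genes are the 10 highest and 5 lowest correlations with Cxcl9, the 8 largest rises and falls for Responder against NonResponder and 3 for each other comparison (with 1 sign wherever a title series allowed the comparison), members fixed by role, and those with opposite correlations over 0.2 in the title series. Trim55 and Trim58 were not analysed here. Replicate numbers follow accession order and only name arrays. Promoter sequences are RefSeq's.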

Additional observations from a re-analysis of the deposited data

Results flagged for a closer look

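The slope on Cxcl9 differed between the title series, by the interaction test, for Trim63 (1.70), Trim54 (1.11) and Trim27 (-0.28). Without Responder replicate 21 none of the 3 passed.

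Among 72 checks of the named members in the PBS and Relapse groups, 3 arrays lay far from the rest of their group. Chance alone flags about 1 group in 20. Trim31 was at 3.96 in Relapse replicate 6, with the others between 4.28 and 4.45. Trim33 was at 10.14 in PBS replicate 5, with the others between 9.15 and 9.56. Trim54 was at 5.58 in PBS replicate 1, with the others between 4.91 and 5.09, and the same array had 10.27 for the mean of the muscle genes, against a PBS median of 5.39.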

How the results depend on the processing

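Counts of members that passed are given here by alternative where they moved by over 1.5 times, with the share of all genes that passed in parentheses. With dim genes left out (27 members remain) they were 16 (48.3%) for Responder against NonResponder, 15 (37.9%) for Responder against ControlIgG, 12 (17.1%) for Relapse, 17 (48.8%) for the F test over 7 groups and 16 (39.7%) for the slope. With quantile normalization they were 15 (22.7%) for Responder against ControlIgG, 6 (7.29%) for Relapse and 18 (33.4%) for the F test. With array weights they were 42 (61.5%) for Responder against ControlIgG, 37 (56.5%) for Relapse, 32 (54.6%) for Stabilization, 55 (83.3%) for the F test and 15 (14.1%) for the slope. The larger series alone gave 4 (3.02%) for Responder against NonResponder and 0 (0%) for Relapse, and the smaller alone 12 (19.1%), 5 (2.98%), 7 (13.6%) for Stabilization and 0 (0.555%) for the slope. With no title series term Relapse gave 9 (8.91%). Stabilization gave 0 to 20 when each array was left out in turn, and 1 (1.19%) without the 5 arrays that stand apart, an alternative chosen after seeing the data, as were those that leave out Relapse arrays. The slope gave 16 with Ifng (12%), with the interferon gamma list (17.1%) or with Ptprc added (18.4%), and 42 (65.4%) with no group term. The slopes that differed by title series fell from 3 members to 0 without the 5 arrays, with Trim63 at -0.303 and Trim54 at -0.0577. With the lowest correlation among probe sets, 7 members exceeded 0.5.

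Among named members whose slope had passed, those that changed sign were, in the smaller series alone, Trim10 (0.0254), Trim13 (0.0999) and Trim5 (-0.0722). With the type I list they were Trim24 (0.393), Trim47 (-0.252) and Trim59 (0.369), and with Ptprc Trim13 (0.0221), Trim24 (0.123), Trim47 (-0.184) and Trim5 (-0.017). Another 37 sign changes, over the named members and all alternatives, were in slopes that had not passed. The cause was not tested. No named Responder minus NonResponder difference that passed changed sign under any alternative run.

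No paired analysis was possible because the labels carry no replicate numbers. Members near background, shared sequence among the chromosome 7 genes and the number of arrays in the small groups limit these results.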
